A study of Mus musculus with 2 samples.

Results

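The replication-dependent histone genes were examined for chromatin accessibility in nuclei of sham and stroke mouse brains. They were chosen by symbol, as the protein-coding genes of the GENCODE M21 annotation of mm10 whose names start with Hist1h, Hist2h or Hist3h, and this gave 66 of 21938 protein-coding genes. The rule uses symbols alone. Of the 66 members, 6 encode the linker histone H1, 18 encode H2A, 18 encode H2B, 12 encode H3 and 12 encode H4. There are 54 members on chromosome 13, 10 on chromosome 3 and 2 on chromosome 11.

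Single-cell ATAC-seq (scATAC-seq), in which the Tn5 transposase cuts accessible DNA inside nuclei and each nucleus receives a barcode, was performed on 2 libraries. The mice were wild-type C57BL/6J males of 8 to 12 weeks. The stroke library held ipsilateral hemispheres pooled from 4 mice and taken at 48 h, after a filament had closed the middle cerebral artery for 1 h and reperfusion had followed. By the methods, which name no group here, the brain tissue was taken without olfactory bulbs and cerebellum. The sham library held brains pooled from 4 mice at 48 h, after the same surgery without sustained occlusion, so that the tissue taken, the library and the condition cannot be told apart. With 1 library per condition no test was possible. Levels are therefore given with exact Poisson 95% intervals and ratios with exact conditional binomial 95% intervals, which cover counting error only.

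The nuclei analysed were the called barcodes with over 20% of their fragments in peaks, 6817 in sham and 5054 in stroke, with 73449269 and 52773775 fragments. The median depth was 10353 fragments per nucleus in sham and 9898 in stroke. This rule left out 162 of 6979 called barcodes in sham and 3686 of 8740 in stroke, so the libraries stand apart in the share of such barcodes. The study analysed more stroke cells than the barcodes called here, so the stroke nuclei described are far fewer than its own. Of all fragments, 13.5% in sham and 12.2% in stroke lay over a protein-coding transcription start site (TSS). Among the analysed nuclei, 42 barcodes occurred in both libraries.

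Histones H2A, H2B, H3 and H4 form the protein core around which nucleosomal DNA is wound, and H1 binds the linker DNA between nucleosomes. The replication-dependent genes supply these proteins in bulk during S phase. They are short, mostly lack introns, end their mRNAs in a stem-loop in place of a poly(A) tail, and lie in clusters that gather in a nuclear body organized by NPAT. Cells that have left the cycle rely more on replication-independent variants such as H3.3, encoded elsewhere. Most cells of the adult brain are of this kind.

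To show what lies upstream of genes with high and low levels, the 150 bases before the RefSeq start (build GRCm38.p6) are given for 7 members, on the coding strand. The first 3 had the highest levels, Hist1h1c and Hist1h1t are a somatic and a testis-specific H1 gene, Hist1h2ba is a testis-specific H2B gene, and Hist1h2ao is one of 4 members whose sequence could not be placed uniquely. Capitals mark 5 motifs searched on both strands: the TATA box TATAAA, the CCAAT box, the octamer ATTTGCAT, the H1 box AAACACA and the E2F site (TTT followed by C or G at 2 positions and CGC).
Hist1h4a, chr13:23761250-23761399, minus strand: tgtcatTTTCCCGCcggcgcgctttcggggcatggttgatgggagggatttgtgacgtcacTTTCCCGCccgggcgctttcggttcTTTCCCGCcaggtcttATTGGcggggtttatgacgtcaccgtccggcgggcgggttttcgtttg
Hist3h2a, chr11:58954535-58954684, plus strand: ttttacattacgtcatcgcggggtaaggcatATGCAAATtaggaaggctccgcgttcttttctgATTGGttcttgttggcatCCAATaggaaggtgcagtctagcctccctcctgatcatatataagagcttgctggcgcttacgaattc
Hist2h2bb, chr3:96269550-96269699, plus strand: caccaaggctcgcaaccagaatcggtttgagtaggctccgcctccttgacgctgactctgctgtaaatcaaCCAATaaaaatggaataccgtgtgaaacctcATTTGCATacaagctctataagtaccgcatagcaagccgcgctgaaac
Hist1h1c, chr13:23738657-23738806, plus strand: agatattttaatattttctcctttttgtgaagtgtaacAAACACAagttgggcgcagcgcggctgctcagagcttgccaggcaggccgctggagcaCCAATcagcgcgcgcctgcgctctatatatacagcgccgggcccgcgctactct
Hist1h1t, chr13:23695661-23695810, plus strand: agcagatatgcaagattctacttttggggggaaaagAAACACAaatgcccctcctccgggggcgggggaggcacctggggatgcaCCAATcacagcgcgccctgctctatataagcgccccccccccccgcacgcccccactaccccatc
Hist1h2ba, chr13:23934157-23934306, minus strand: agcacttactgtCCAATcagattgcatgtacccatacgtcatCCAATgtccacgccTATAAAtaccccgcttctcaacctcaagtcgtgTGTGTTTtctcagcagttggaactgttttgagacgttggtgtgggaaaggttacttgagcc
Hist1h2ao, chr13:21810217-21810366, plus strand: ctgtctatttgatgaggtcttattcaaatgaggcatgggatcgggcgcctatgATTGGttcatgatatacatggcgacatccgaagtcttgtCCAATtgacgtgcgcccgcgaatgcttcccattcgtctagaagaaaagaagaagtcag

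RefSeq promoters of 300 bases, from 250 before to 50 after the start, were matched to 60 of the 66 members and compared with 21263 protein-coding promoters of the same length. CCAAT was present in 52 of 60 members against 38.2% of all promoters. It was in every matched H1, H2A, H2B and H3 promoter but in 3 of 11 H4 promoters. The octamer was present in 13 of 60 members against 1.66% of all promoters, 7 of them H2A and 6 H2B genes. TATAAA was present in 35 of 60 members against 12.6%. The H1 box was found in 5 of 6 H1 promoters against 6.15% of all promoters. The E2F site was found in 10 of 60 members against 2.86%, and in the H4 genes it was found in Hist1h4a alone. Divergent H2A and H2B genes share part of their promoters, so these counts are not over independent sequences. Hist1h1c and Hist1h1t both hold an H1 box and a CCAAT box, and their levels, given next, lay far apart.

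The level of a gene was measured as the fragments over its TSS ± 500 bp per 1000000 fragments of the analysed nuclei, written CPM. Values of a window without another unit are in CPM. The median member lay at 9.61 in sham and 9.07 in stroke, against 2.995 and 3.06 over all protein-coding windows. Above the median of all windows lay 54 of the 66 members. Levels differed widely among members, as the plot of every member shows.

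**Figure D1:**
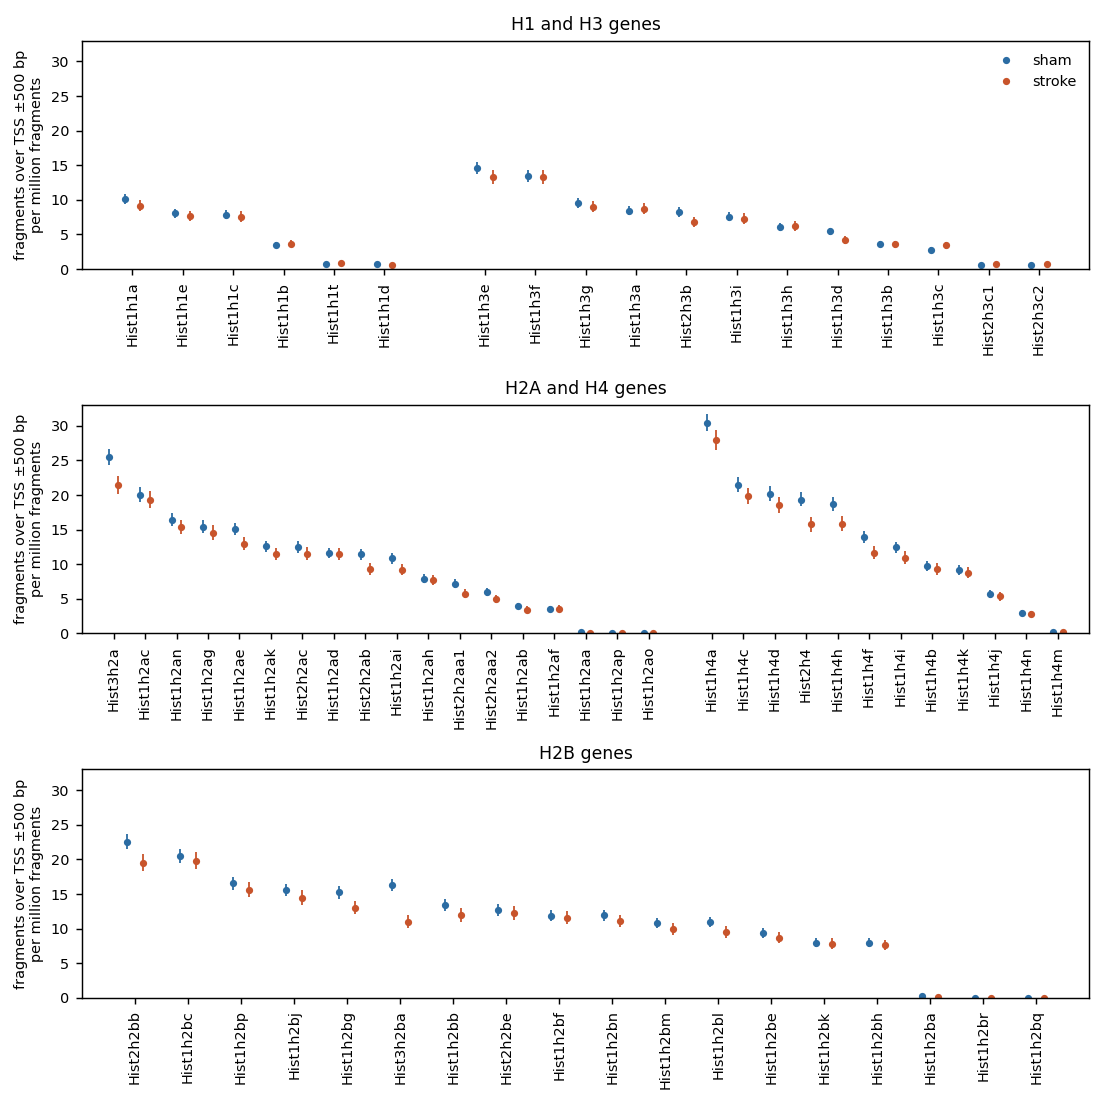
Fragments over TSS ± 500 bp in CPM for each of the 66 members, grouped by histone type and ordered by level within a type, in sham (blue) and stroke (orange). Points are 1 library each and bars are exact Poisson 95% intervals; levels run from 0 to 30.5 and both libraries lie close together at every member, with Hist3h2ba the widest apart among well-covered genes.

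Hist1h4a (H4, chr13:23760692-23761230) had the highest level, with 30.5 in sham (29.2 to 31.7) and 27.9 in stroke (26.5 to 29.4). It stood at the 97.6th percentile of all protein-coding windows. Hist3h2a (H2A, chr11:58954685-58956830) followed with 25.5 in sham and 21.4 in stroke. Hist2h2bb (H2B, chr3:96269752-96270132) had 22.5 and 19.6. These 3 genes come from 3 chromosomes and 3 histone types, so the highest levels were not all in 1 cluster. The highest H3 gene, Hist1h3e (chr13:23561534-23562369), reached 14.6 and 13.3, and the highest H1 gene, Hist1h1a (chr13:23763666-23764406), 10.1 and 9.11. By type, the median sham level was 5.65 for H1, 6.77 for H3, 11.1 for H2A, 11.9 for H2B and 13.2 for H4, and the median stroke level followed the same order with 5.60 for H1, 6.45 for H3, 9.26 for H2A, 11.03 for H2B and 11.3 for H4.

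At the low end, 4 members had 0 fragments in both libraries: Hist1h2bq, Hist1h2ao, Hist1h2ap and Hist1h2br, which form 2 divergent pairs of an H2A and an H2B gene on chromosome 13. With 0 counted, 3 counts set a one-sided limit of 0.0408 in sham and 0.0568 in stroke, and the Poisson interval reached 0.0502 and 0.0699. In these windows none of the 50-base words of the sequence occurred once only in the genome, so reads from them could not be placed uniquely, and the 0 says nothing of their accessibility. Hist1h4m, Hist1h4n, Hist2h3c1 and Hist2h3c2 had 4.8% to 5.8% unique words and are uncertain for the same reason. The other 58 members had at least 29.7% unique words. Their median was 10.9 in sham and 9.38 in stroke, and 54 of them lay above the median of all windows. The medians given above, over all members and by type, include the 8 members with few or no unique words. Among the 58, a pair of testis genes was lowest. Hist1h2ba had 0.204 in sham and 0.114 in stroke, Hist1h2aa 0.191 and 0.114. The somatic linker histone gene Hist1h1d, at its annotated TSS, had 0.694 and 0.587, and the testis linker histone gene Hist1h1t had 0.667 and 0.872. These values rest on 15 and 6 fragments for Hist1h2ba, 14 and 6 for Hist1h2aa, and 49 and 46 for Hist1h1t. The somatic Hist1h1c had 7.83 and 7.54. The member next to Hist1h1t along the chromosome, Hist1h4c, had 21.5 and 19.8.

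The annotated 5′ end matters for 3 members, where it is 433 bp or more from the start codon. For Hist1h1d the distance is 1828 bp, and the level was 0.694 in sham at the annotated TSS and 4.83 in a window centred on the start codon. For Hist1h2be it is 35168 bp, with 9.34 and 8.25 by the same comparison, and its annotated TSS lies within the Hist1h1e gene. For Hist1h3f it is 433 bp, with 13.4 and 10.7.

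Of the members, 26 have a window that overlaps another member's, in 13 divergent pairs of which 12 join an H2A to an H2B gene with their starts 176 to 306 bp apart. The partners cannot be measured separately: Hist1h2ac and Hist1h2bc had 20.04 and 20.5 in sham and 19.3 and 19.8 in stroke. Sums over members therefore count each fragment once. In the 250 bp upstream of H2A starts the density of cut sites was 16.2 times that of the flanks (over 750 bp from the start) in sham and 14.3 times in stroke, against 4.04 and 3.45 times in the 250 bp downstream. For H4, none of whose genes has an overlapping partner among the members, the upstream values were 13.4 and 11.6 and the downstream values 6.76 and 5.84. For all protein-coding genes they were 8.70 and 7.93 upstream and 5.64 and 5.28 downstream. The upstream values were 17.5 and 15.15 for H2B, but 2.29 and 1.99 for H1 and 2.43 and 2.40 for H3, below those of all protein-coding genes. Over all members they were 8.88 and 7.99 upstream, close to all protein-coding genes, and 3.09 and 2.80 downstream. The flanks themselves differed. In the sham bin at 950 bp downstream, cut sites per window were 0.340 CPM for H1, 0.612 for H3 and 0.209 for all members. For all protein-coding genes that bin held 0.0731. In the highest sham bin the values were 1.12 for H1, 1.05 for H3 and 1.49 for all members, against 0.861 for all protein-coding genes. The low values of H1 and H3 relative to the flanks are thus not lower peaks at the start. Fragments over members had a median length of 87 bp in sham and 86 bp in stroke, against 75 bp and 74 bp over all TSS windows.

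**Figure D2:**
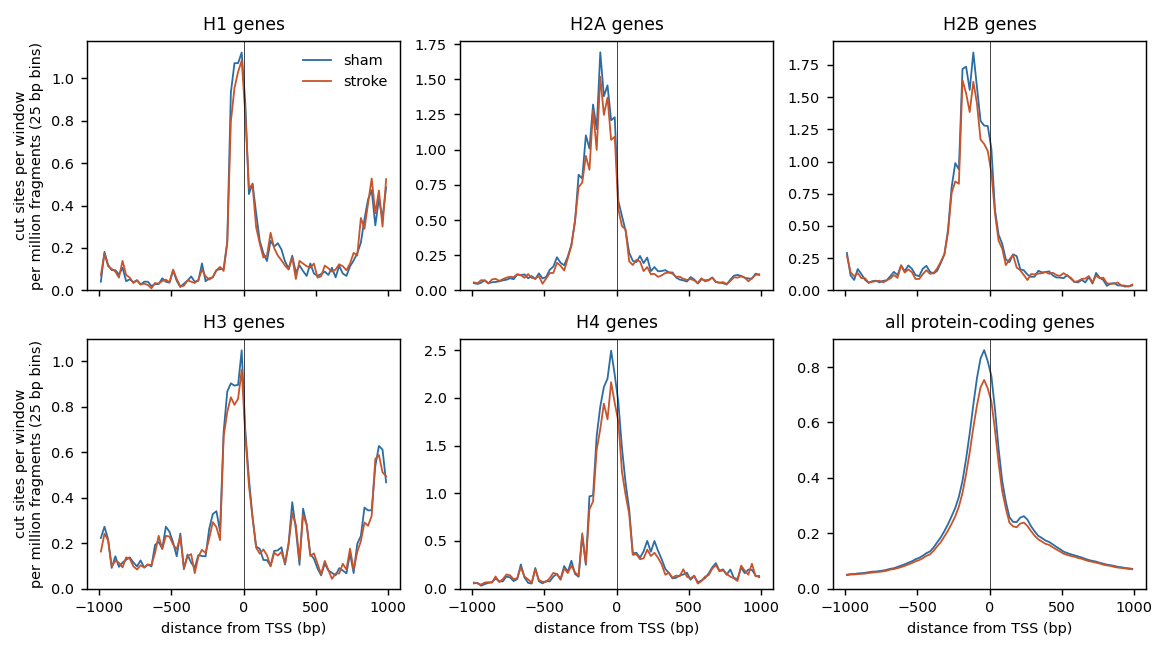
Cut sites per window in CPM in bins of 25 bp from 1000 bp upstream to 1000 bp downstream of the TSS, for each histone type and for all protein-coding genes, in sham (blue) and stroke (orange). H2A and H2B genes show a broad upstream peak with a steep drop at the start, with 16.2 times the flank density upstream of H2A starts in sham, and H4 genes peak at the start.

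To compare stroke with sham, a window was called when its levels differed at least 1.5-fold with 50 or more fragments over both libraries. No member was called higher and none lower among the 59 members with enough fragments. Over all 16171 windows with enough fragments, 5.29% were called higher and 2.13% lower. The median ratio of stroke to sham was -0.11 on the log2 scale for members and -0.12 for all windows.

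Counted over the union of their windows, members held 537 CPM in sham (532 to 542) and 485 in stroke (479 to 491), a ratio of 0.904 (0.890 to 0.918). The lower share of all fragments over TSS windows in stroke moved with this value. Per 1000000 TSS-window fragments (TSS-CPM), members held 3971 in sham and 3990 in stroke, a ratio of 1.005 (0.989 to 1.02). By type, the ratio of CPM was 0.956 for H1, 0.900 for H2A, 0.903 for H2B, 0.954 for H3 and 0.893 for H4. In TSS-CPM it was 1.06 for H1 (0.995 to 1.13), 1.06 for H3 (1.02 to 1.10), and 0.992 to 1.0035 for the other types. The members as a whole lay below 1 on the first scale and at 1 on the second.

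Among the 59 members with enough fragments, the lowest ratio was that of Hist3h2ba (H2B, chr11:58948920-58949533), with 16.3 in sham and 11.01 in stroke, a ratio of 0.676 (0.611 to 0.747). Its neighbour Hist3h2a had a ratio of 0.841 (0.780 to 0.906). Hist1h3d (H3, chr13:23575763-23577011) came next, with 5.43 and 4.13 and a ratio of 0.760 (0.642 to 0.899), and then Hist2h2aa1 (H2A, chr3:96245497-96246082), with 7.19 and 5.72 and a ratio of 0.796 (0.689 to 0.919). The highest ratios among the 59 belonged to members with low levels and wide intervals. Hist2h3c2 (H3) had 0.531 and 0.701, a ratio of 1.32 (0.819 to 2.13). Hist1h1t had a ratio of 1.31 (0.854 to 1.99), and Hist1h3c (H3, chr13:23744973-23745602), with 2.82 and 3.41, one of 1.21 (0.986 to 1.49). Each of these 3 intervals includes 1.

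Genes that work with the histone genes were compared as lists. Of 14 genes of the histone locus body and of histone mRNA processing, 1 was called higher and none lower, with a median of -0.15 on the log2 scale. The one called was Zfp473, a zinc finger protein of the histone mRNA processing complex, on 38 and 41 fragments (ratio 1.502, 0.942 to 2.40), so that the interval includes 1. Npat, the coactivator that organizes the histone locus body, had 34.0 in sham and 28.4 in stroke. Ccne1, whose cyclin activates NPAT through CDK2, had the lowest ratio of the list at 0.790 (0.733 to 0.850). A list of 13 genes joined the replication-independent histone genes and Hist4h4, a gene outside the clusters, and none was called, with a median of -0.14. H1fx had 8.21 and 6.27 and H2afy 0.939 and 1.08, the lowest and highest ratios of that list. None of 20 S phase and DNA replication genes was called, with a median of -0.08. Mcm2, a subunit of the replicative helicase, had the lowest ratio at 0.798 and E2f2 the highest at 1.44 (1.06 to 1.94). None of 12 histone chaperones was called, with a median of -0.18. Asf1b, which hands H3 and H4 to chromatin assembly, had 43.4 and 34.2, the lowest ratio of the list, and Atrx 5.00 and 5.04, the highest. A list of 79 cytosolic ribosomal protein genes was chosen by symbol, and 72 of them lay above the median level of all windows. Of the 79, 77 had enough fragments, none was called, and the median ratio was -0.15 on the log2 scale.

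Nuclei were next assigned to classes by the fragments over fixed marker genes, summed over each nucleus and its 30 nearest neighbours. This gated 4249 nuclei in sham and 2837 in stroke into 8 classes. In each class at least 9 markers lay over 1.5-fold above the other nuclei, and the class's marker list was highest in that class. The gate was made from these same lists, so this outcome was largely fixed in advance. In glutamatergic neuron-gated nuclei 9 of 12 markers passed, and in vascular and leptomeningeal-gated nuclei 13 of 15. In the other 6 classes every marker passed. Among the 10 genes with the highest fold in each class, 1 to 5 were its own markers and at most 1 was on another list. In glutamatergic neurons the marker was Neurod6 alone, beside Vmn1r233, Svs6, Olfr1427, Olfr459 and Olfr464, among others. In striatal spiny projection neurons it was Syndig1l alone, beside Lce3f, Olfr452 and Olfr453, among others. Genes outside the lists followed: Tyrobp was highest in microglia and other myeloid-gated nuclei, Sox10 in oligodendrocyte-gated nuclei and Gfap in astrocyte-gated nuclei. The sham library held 21 microglia and other myeloid-gated nuclei and stroke 204, so values of this class in sham rest on 112 member fragments. Vascular and leptomeningeal-gated nuclei were shallow, with a median of 1396 fragments in sham and 2740.5 in stroke, as were oligodendrocyte-gated nuclei with 2198 and 3716.

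In CPM, summed member levels were higher in astrocytes, oligodendrocyte precursors and myeloid cells than in neurons. Astrocyte-gated nuclei (418 in sham, 568 in stroke) held 730 in sham (702 to 760) and 662 in stroke (640 to 685). This was 1.38 times (1.32 to 1.44) and 1.36 times (1.31 to 1.41) the level of the other gated nuclei. Oligodendrocyte precursor-gated nuclei held 692 and 661, and microglia and other myeloid-gated nuclei 738 (608 to 888) and 663 (632 to 694). Vascular and leptomeningeal-gated nuclei held 616 and 611, and oligodendrocyte-gated nuclei 605 and 508. Among neurons, striatal spiny projection neurons held 585 and 492, glutamatergic neurons 514 and 424, and interneurons 491 and 449. The intervals of the first 3 classes lay above those of all 3 neuron classes in both libraries. The interval of oligodendrocytes overlapped that of spiny projection neurons in both libraries (541 to 676 against 569 to 601 in sham), and that of vascular nuclei did so in sham (545 to 693).

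The share of fragments over all TSS windows also differed between classes, though not in the same order, from 12.8% in glutamatergic neurons to 20.1% in vascular and leptomeningeal-gated nuclei in sham and from 10.9% to 17.5% in stroke. In TSS-CPM the order changed. Microglia and other myeloid-gated nuclei were highest with 4543 in sham (3741 to 5466) and 5093 in stroke (4858 to 5337), which was 1.13 times (0.931 to 1.36) and 1.30 times (1.24 to 1.37) the other gated nuclei. Vascular and leptomeningeal-gated nuclei were lowest with 3061 and 3498, and astrocytes had 3695 and 3882, which was 0.910 and 0.956 times the others. Striatal spiny projection neurons held 4393 and 4249, 1.12 times (1.08 to 1.15) and 1.07 times (1.01 to 1.12) the other gated nuclei. Glutamatergic neurons held 4033 and 3886, interneurons 3841 and 3709, and oligodendrocyte precursors 4219.5 and 4538. On this scale astrocytes thus lay below spiny projection neurons in both libraries. Of 8 cycling-cell markers, 5 lay over 1.5-fold above the other nuclei in myeloid-gated nuclei. The list summed to 178 (27 fragments) and 188 CPM over gene bodies in that class, to 160 and 179 in vascular nuclei, 150.3 and 183 in oligodendrocyte precursors, 154 and 159 in astrocytes, and 114 to 136 in the neuron classes and oligodendrocytes. Over TSS windows the list was instead highest in vascular nuclei (121 and 127) and astrocytes (116 and 119), with 98.8 and 105 in myeloid-gated nuclei. The part of these markers in the member levels was not tested.

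**Figure D3:**
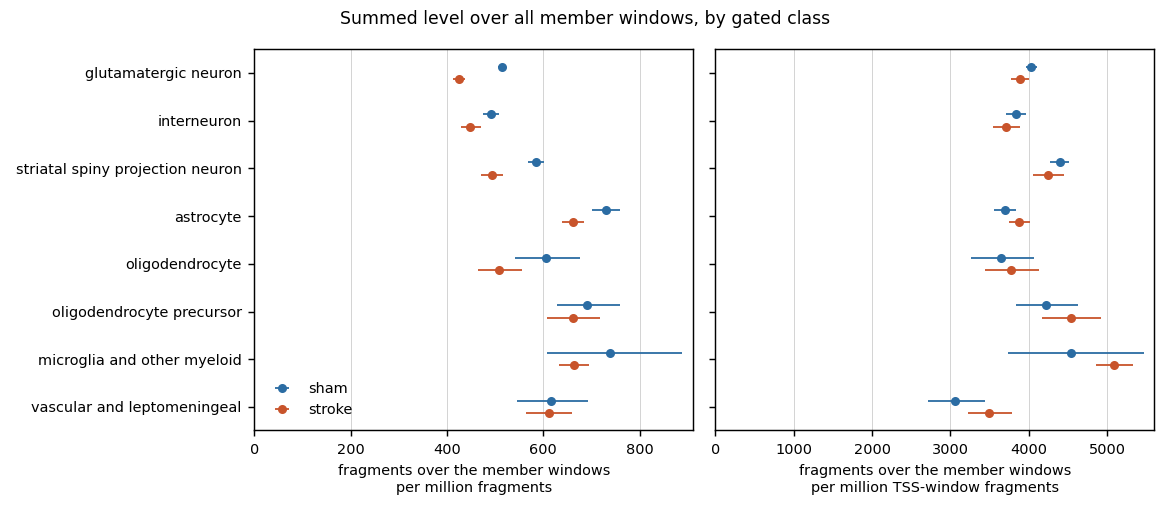
Fragments over the union of the member windows in 8 marker-gated classes, in CPM (left) and TSS-CPM (right), for sham (blue) and stroke (orange). Bars are exact Poisson 95% intervals; on the left astrocytes lie above all neuron classes, and on the right the order differs, with myeloid-gated nuclei of stroke at 5093 and vascular nuclei of sham at 3061.

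A member was called for a class when its level was at least 1.5-fold that of the other gated nuclei in both libraries, with 20 or more fragments in the class. In astrocytes 16 of 55 members were called higher, against 33.4% of all windows, so the share was not above the background. In TSS-CPM 1 of 55 members, Hist2h2be, was called higher, against 11.9% of all windows, and 8 of 55 lower, against 10.1%. The member highest over the rest in astrocytes, by the lower of both libraries, was Hist2h2be, an H2B gene known for its role in olfactory neurons, with 27.1 in sham and 28.4 in stroke, 2.35 and 2.59 times the other gated nuclei. Its divergent partner Hist2h2ac had 24.996 and 24.3. Hist2h2be lay at 9.21 and 10.3 in glutamatergic neurons. In sham it lay as high as in astrocytes in oligodendrocyte precursors (32.2, 21 fragments), vascular nuclei (31.5, 14 fragments) and oligodendrocytes (28.6, 15 fragments), with 13.8, 20.2 and 11.7 in stroke.

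In the other direction, 3 of 55 members were called lower in astrocytes, against 3.16% of all windows: Hist3h2ba, Hist1h4f and Hist1h3d. Hist3h2ba had 2.94 in sham (10 fragments) and 2.62 in stroke (13 fragments) in astrocytes, 0.170 and 0.232 times the other gated nuclei. In striatal spiny projection neurons the same window had 20.5 and 14.3, in interneurons 18.5 and 13.01, and in glutamatergic neurons 16.2 and 11.01. It was also low in vascular and leptomeningeal-gated nuclei, with 4.49 and 2.89 on 2 and 3 fragments. Its neighbour Hist3h2a showed no such contrast, with 24.4 and 25.8 in astrocytes and 24.8 and 22.1 in glutamatergic neurons. Hist3h2ba had 19.9 and 13.8 in oligodendrocyte precursors, 11.4 and 10.7 in oligodendrocytes, and 13.2 (2 fragments) and 7.93 in myeloid-gated nuclei. Within each of the 3 neuron classes its value was lower in stroke than in sham. The neuron classes also made up a smaller share of nuclei in stroke, with glutamatergic neurons at 29.9% of nuclei in sham and 14.9% in stroke, and the part of this in the ratio of Hist3h2ba was not tested. Hist1h4f (H4) had 4.71 and 5.23 in astrocytes and 15.7 and 11.7 in glutamatergic neurons. Hist1h3d had 2.65 and 2.82 in astrocytes.

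In glutamatergic neurons 1 of 56 members was called (4.44% of all windows), Hist1h1d, at 0.963 on 25 fragments and 1.01 on 10. The window of Hist1h1d lies at its annotated TSS, 1828 bp from the start codon. In the same class 2 members were called lower (11.5%), Hist2h2ac and Hist2h2be. In interneurons (3.1% of all windows) and in striatal spiny projection neurons (4.86%) none of 55 was called higher, and Hist3h2ba ranked first in both. Called lower were 2 of 55 in interneurons (2.85%), Hist1h3h and Hist1h1b, and 2 of 55 in striatal spiny projection neurons (7.13%), Hist1h2bm and Hist1h1e. In oligodendrocytes 1 of 18 was called (13.4%), the linker histone gene Hist1h1e, at 15.2 on 8 fragments and 17.1 on 16. This gene was also called higher in astrocytes (14.4 and 13.7) and in myeloid-gated nuclei (26.4 on 4 fragments and 13.6 on 36), and it lay at 3.14 and 3.77 in striatal spiny projection neurons and at 8.17 and 6.77 in glutamatergic neurons. In oligodendrocyte precursors 2 of 30 were called (13.8%): Hist1h2bm, and Hist1h4a with 50.6 in both libraries. In microglia and other myeloid-gated nuclei 6 of 49 were called (7.86%), with Hist1h2ak first at 26.4 in sham on 4 fragments and 20.8 in stroke on 55. In vascular and leptomeningeal-gated nuclei 4 of 22 were called (35.8%), with Hist1h1c first at 22.5 and 16.4. Several of these calls were lost in TSS-CPM. There 1 was called higher in glutamatergic neurons (7.53% of all windows), Hist1h1d, and none in interneurons (4.15%) or striatal spiny projection neurons (6.08%). Oligodendrocytes kept Hist1h1e (8.73%) and oligodendrocyte precursors Hist1h2bm (7.71%). In myeloid-gated nuclei 4 of 49 were called (6.92%), Hist2h2aa1, Hist1h2ak, Hist1h2bn and Hist1h1e, and in vascular nuclei none of 22 (11.5%). Called lower in TSS-CPM were none in glutamatergic neurons (6.74%), Hist1h1b in interneurons (2.04%) and Hist1h1e in striatal spiny projection neurons (5.73%).

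Within classes, the summed member level was lower in stroke than in sham in all 8 classes in CPM. The ratio was 0.825 in glutamatergic neurons (0.796 to 0.854), 0.842 in striatal spiny projection neurons (0.798 to 0.889), 0.907 in astrocytes (0.860 to 0.955) and 0.992 in vascular and leptomeningeal-gated nuclei (0.860 to 1.15). The intervals of oligodendrocyte precursors (0.843 to 1.08), myeloid-gated (0.742 to 1.10) and vascular nuclei include 1. In TSS-CPM the ratio was 0.964 to 0.967 in the 3 neuron classes and 1.04 to 1.14 in the other 5, and the interval excluded 1 only in glutamatergic neurons (0.931 to 0.998).

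On chromosome 13 the members form a pair of clusters. Cluster 1 (chr13:21711143-22048214) holds 23 members and 3 other protein-coding genes, and cluster 2 (chr13:23526050-23939462) holds 31 members and 6 others. Member windows cover 5.31% of cluster 1 and held 43.3% of its fragments in sham and 39.9% in stroke. In cluster 2 they cover 6.68% and held 60.2% and 57.3%. The density of fragments inside member windows was 13.6 and 11.8 times that outside in cluster 1, and 21.1 and 18.7 times in cluster 2. The other genes were mostly closed. Zfp184 had 8.20 in sham and 6.29 in stroke, Hfe, the hemochromatosis gene, had 1.48 and 2.37 (ratio 1.60, 1.22 to 2.08). Pom121l2 had 0.912 and 1.2506, and the remaining 6 lay lower.

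**Figure D4:**
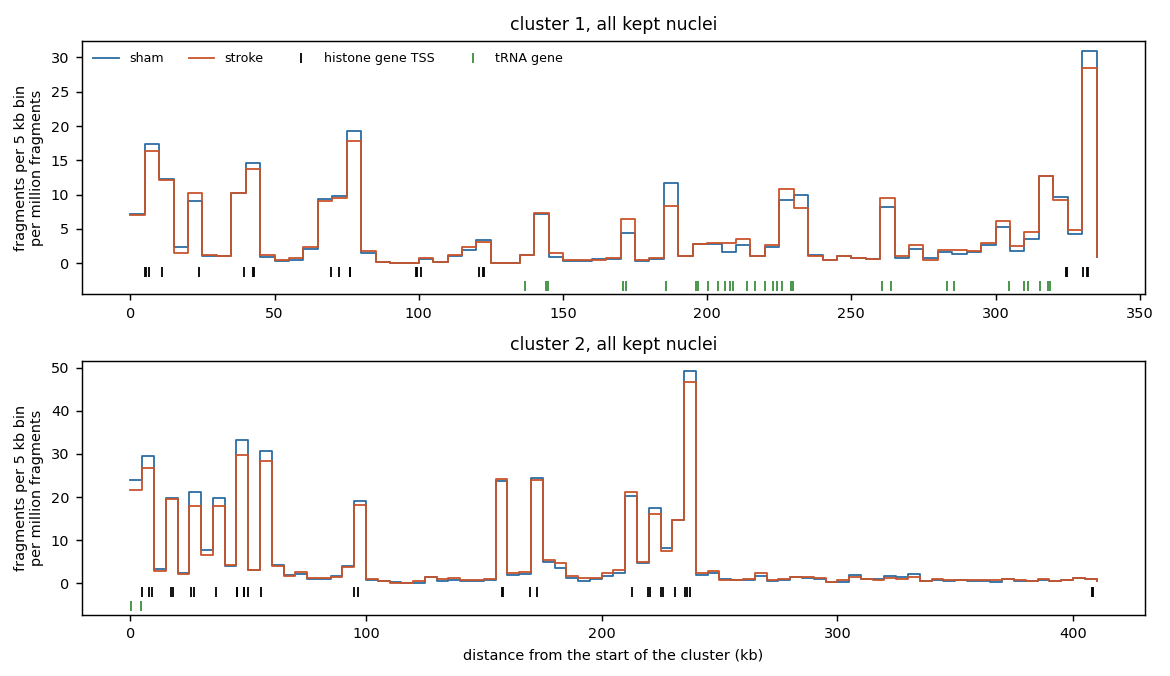
Fragments per 5 kb bin in CPM along cluster 1 (top) and cluster 2 (bottom), for all analysed nuclei of sham (blue) and stroke (orange), against distance from the start of the cluster in kb. Black ticks mark member starts and green ticks tRNA genes; the highest bin, with Hist1h4a, Hist1h3a and Hist1h1a, lies in cluster 2 at 49.1 in sham and 46.6 in stroke, and the gap between member groups of cluster 1 holds smaller peaks.

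Cluster 1 has a long stretch with no histone gene between its member groups, and this stretch also held fragments. RefSeq places 31 tRNA genes in cluster 1 and 2 in cluster 2, in 17 and 1 of the 5 kb bins and none in a bin with a member start. These genes, transcribed by RNA polymerase III, were looked at after the levels along the clusters had been seen, so their values are a description. Over tRNA starts ± 500 bp of cluster 1, leaving out fragments over protein-coding windows, 66.2 CPM lay in sham and 71.5 in stroke, a ratio of 1.08 (1.03 to 1.13).

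In astrocyte-gated nuclei these tRNA windows held 51.5 CPM in sham (175 fragments) and 135 in stroke (671 fragments), a ratio of 2.62 (2.22 to 3.12). The value was higher in stroke at 30 of the 31 tRNA genes, some of which share a window, but 8 had no sham fragment. Only 6 had 50 or more fragments over both libraries, of which 5 were at least 1.5-fold higher. A gene could pass this minimum through stroke alone, so these counts are no separate support. The same counts were not made for the tRNA genes elsewhere. In all nuclei together, and in myeloid-gated nuclei, the value was higher at 24 of the 31. A tRNA-Asp gene, n-TDgtc12, had 5.88 in sham (20 fragments) and 16.3 in stroke (81 fragments), and a tRNA-Ile gene, n-TIaat7, had 9.12 (31) and 15.9 (79). In glutamatergic neurons the same windows held 74.0 and 70.4, a ratio of 0.951 (0.871 to 1.04). In striatal spiny projection neurons the ratio was 0.808 (0.680 to 0.956), lower in stroke, and in interneurons 0.899 (0.746 to 1.08). In oligodendrocytes, their precursors, myeloid-gated and vascular nuclei the ratios were 1.54 to 1.65, on 9 to 20 sham fragments each, and every interval included 1. In astrocytes the 370 tRNA genes elsewhere in the genome had a ratio of 1.2475 (1.21 to 1.29), and the 2 in cluster 2 one of 1.14 (0.797 to 1.65). The 5 kb bins hold the same fragments as the tRNA windows, and a bin could pass the minimum through stroke alone, so their counts are no separate support. Of the 10 bins of cluster 1 without a member start that had 50 or more fragments in astrocytes, 7 were at least 1.5-fold higher in stroke, and each of the 7 holds a tRNA gene. The only bin lower by that fold, at 60 kb, holds none (ratio 0.617, 0.405 to 0.938). Of the 10 bins with a member start, none was. Over all bins of the genome 14.2% were called higher in astrocytes. In glutamatergic neurons 2 of 25 bins without a member start were called higher, against 9.55% of all bins, and 4 were lower by that fold. In all nuclei together 3 of 50 were called higher, against 16.4%, and 1 was lower. The share of all bins lower by that fold was not counted, so the counts of lower bins are not read as results.

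Bins of cluster 1 with a member start held 221 CPM in sham and 195 in stroke in astrocytes, a ratio of 0.881 (0.801 to 0.971), and those without held 121 and 202, a ratio of 1.68 (1.495 to 1.89). The bins without a member start were higher in stroke in other classes too, on few sham fragments, with ratios of 2.16 (1.45 to 3.29) in oligodendrocytes, 1.81 (1.18 to 2.87) in vascular nuclei, 1.56 (1.10 to 2.23) in oligodendrocyte precursors and 1.14 (0.770 to 1.76) in myeloid-gated nuclei. In interneurons the ratio was 0.832 (0.737 to 0.939) and in striatal spiny projection neurons 0.853 (0.759 to 0.956). Bins with a member start were also higher in stroke in oligodendrocyte precursors (1.395, 1.11 to 1.76). Several measures moved with this in astrocyte-gated nuclei. Their astrocyte marker list summed to 2589 in sham and 2370 in stroke, and their median depth was 6506 and 8005 fragments. Of the lists of other cell types, the microglia and other myeloid list summed to 601 and 679 (0 of 18 markers over 1.5-fold above the other nuclei), the oligodendrocyte list to 328 and 373 (4 of 15), the interneuron list to 394 and 451 (0 of 12), the striatal spiny projection neuron list to 424 and 469.65 (2 of 13), the vascular and leptomeningeal list to 359 and 369 (7 of 15), the oligodendrocyte precursor list to 1285 and 1209 (5 of 12) and the glutamatergic list to 473 and 414 (1 of 12). The part of these in the tRNA windows was not tested. Under a stricter gate the ratio was 2.78.

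**Figure D5:**
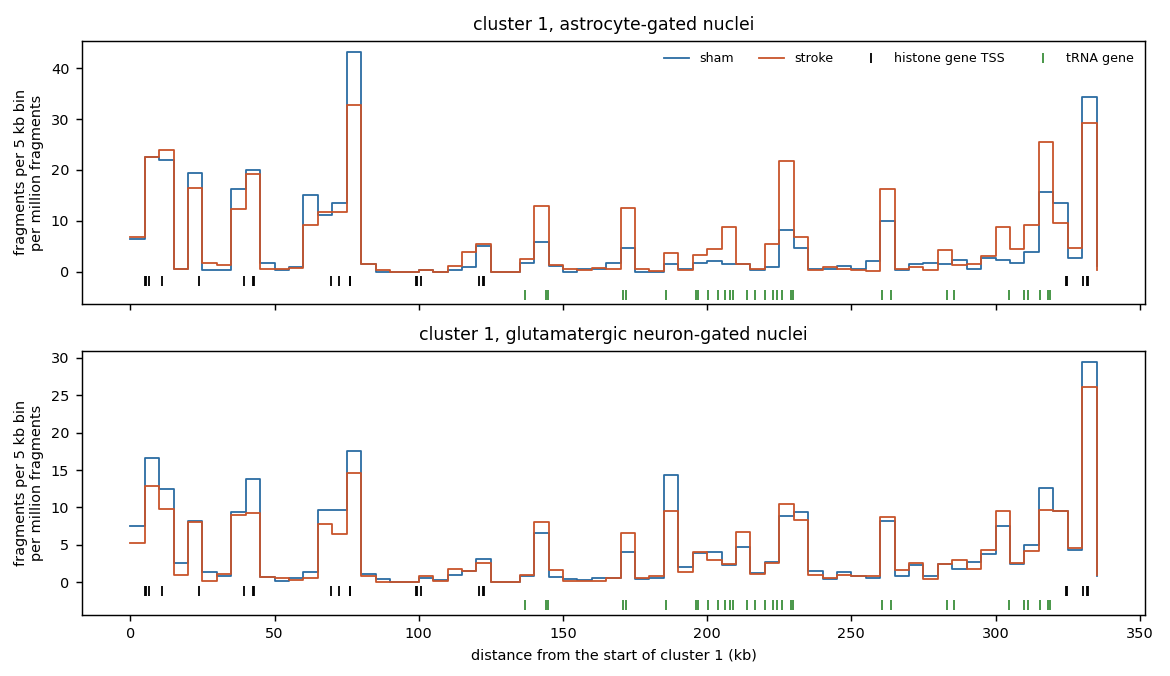
Fragments per 5 kb bin in CPM along cluster 1 in astrocyte-gated nuclei (top) and glutamatergic neuron-gated nuclei (bottom), for sham (blue) and stroke (orange), with ticks for member starts (black) and tRNA genes (green). In astrocytes the stroke line lies above sham at most tRNA bins, with 21.7 against 8.23 at 225 kb, and near or below it at most member bins; in neurons the lines lie closer together.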

How the data were processed

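The authors aligned the reads and made fragments with Cell Ranger ATAC 2.1.0 on the mm10 reference, and deposited for each library a file of fragments with read counts and a table of counts per barcode. Barcodes called as cells with over 20% of fragments in peaks were kept, and no doublet caller was run. Fragments over GENCODE M21 TSS ± 500 bp were counted with Python 3.11.15 and numpy 2.4.6, and divided by the fragments of the nuclei. For the gate, 5 kb bins were reduced to 29 components, marker fragments were summed over 30 neighbours, and a class needed a score of 0.4 (0 at the mean, 1 at the 99th percentile) and 1.5 times the next class. The gate was set with marker and member levels in view. A word is counted as unique when its 50 bases occur once in GRCm38.p6 on either strand. Genes were named by rank of level, of ratio and within each class. The call rule was tested on simulated data. The members and lists were chosen with earlier results of these data known. Replicates per condition are 1 library, so no p-value is given. Alternatives were other windows, scales, barcodes, gates and thresholds.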

Additional observations from a re-analysis of the deposited data

Results flagged for a closer look

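Along cluster 1 of chromosome 13 the total of fragments moved in opposite directions between classes, which set these values apart: the ratio of stroke to sham was 0.902 in glutamatergic neurons (0.862 to 0.944), 0.862 in interneurons (0.794 to 0.935) and 0.866 in striatal spiny projection neurons (0.802 to 0.935), but 1.16 in astrocytes (1.08 to 1.251), 1.44 in oligodendrocyte precursors (1.19 to 1.75) and 1.34 in vascular and leptomeningeal-gated nuclei (1.05 to 1.71). In oligodendrocytes the ratio was 1.15 (0.925 to 1.43) and in myeloid-gated nuclei 1.04 (0.803 to 1.37), and both intervals include 1. Along cluster 2 it was 1.01 in astrocytes (0.950 to 1.07), 1.02 in oligodendrocyte precursors (0.881 to 1.175) and 1.11 in vascular nuclei (0.945 to 1.30). It lay below 1 there in every other class. Each class has 1 library per condition, and the difference between classes was not tested. In cluster 1 the sham values rest on 166 fragments in oligodendrocyte precursors and 92 in vascular nuclei. These ratios are in CPM only. TSS-CPM, which shifted the member ratios within classes, was not computed along the clusters.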

How the results depend on the processing

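No paired analysis was possible because only 1 library stands for each condition, and for the same reason none could be left out. The summed member ratio of stroke to sham (0.904) became 1.0047 in TSS-CPM, with an interval that includes 1 (0.989 to 1.02), 0.889 with ± 250 bp, 0.918 with ± 1000 bp, 0.617 with all called barcodes, and 0.929 as the median over members. Members called higher in stroke went from 0 to 2 at the lower fold tried (Hist2h3c2 and Hist1h1t). Members called lower went from 0 to 3 at that fold (Hist3h2ba, Hist1h3d and Hist2h2aa1), to 1 with ± 250 bp, and to 2 with no minimum (Hist1h2ba and Hist1h2aa). With all called barcodes 43 of 59 were called lower. This brings in the 3686 stroke barcodes with few fragments in peaks, which had 2.52% of fragments over TSS windows against 12.2% in the analysed stroke nuclei. The share of all windows called under these settings is not given, so these counts are not read as results about the members. Classes below 1 within stroke over sham went from 8 to 3 in TSS-CPM, with astrocytes at 1.05, oligodendrocytes at 1.04, oligodendrocyte precursors at 1.08, myeloid-gated nuclei at 1.12 and vascular nuclei at 1.14. Under the stricter gate oligodendrocyte precursors came to 1.0015. Against the other gated nuclei (geometric mean of both libraries) astrocytes turned to 0.933, oligodendrocytes to 0.922 and vascular nuclei to 0.810 on that scale, and striatal spiny projection neurons to 0.948 under the stricter gate. In bins of 1 kb in place of 5 kb, bins with a member start held 41.6% in place of 52.0% of the fragments of cluster 1 in sham, 38.6% in place of 49.4% in stroke, and in cluster 2 58.8% in place of 74.0% and 55.9% in place of 72.2%. In cluster 1 the bins with a member start were 13 of 68 at 5 kb and 17 of 338 at 1 kb. In cluster 2 they were 17 of 83 and 28 of 414, so they cover less of each cluster at 1 kb. The cause of the other shifts was not tested. Leaving out the 8 members with under 10% unique words, chosen after seeing the data, gave 0.908. The rise of the cluster 1 tRNA windows in astrocytes, also added after seeing the data, ran from 2.62 to 3.04 over 3 alternatives.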

Other observations

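The called barcodes left out for having 20% or less of their fragments in peaks held 94.5 CPM over members in sham (78.7 to 112.5) and 89.4 in stroke (86.3 to 92.6), against 537 and 485 in the analysed nuclei. Their share of fragments over TSS windows was 3.44% and 2.52%. In TSS-CPM they held 2747 and 3547.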
